A study of Homo sapiens with 16 samples.

Results

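Acetylation of histone H3 at lysine 9 (H3K9ac) was profiled by chromatin immunoprecipitation with sequencing (ChIP-seq) in H69 cells, a human cholangiocyte line immortalized with a virus; cholangiocytes are the epithelial cells that line bile ducts. The comparison rests on the 4 samples whose antibody label is H3K9ac, 2 treated with TGF-beta and 2 with vehicle, out of 16 samples in the series, 12 of which have a peak file. The other libraries are H3K27ac and SMAD3 ChIP-seq and inputs. Treated cells received recombinant human TGF-beta at 10 ng/ml for 16 h, and the labels do not say what the vehicle was. All 4 libraries came from this one cell line in a single passage range. No other allele or agent is named. The groups were taken from the agent label and the title, since the treatment text of the vehicle samples also describes TGF-beta. Nothing in the labels tells whether replicates came from different cultures, and p-values therefore cover only the spread between these libraries.

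H3K9ac is deposited by acetyltransferases such as KAT2A and KAT2B and read by bromodomain and YEATS proteins, and it marks active promoters and many active enhancers. TGF-beta binds a receptor kinase that phosphorylates SMAD3, which then enters the nucleus and binds DNA together with other factors. In epithelial cells TGF-beta is known to induce matrix and adhesion genes, and in bile duct epithelium it is linked to fibrosis.

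Each library contributed a list of peaks that holds no read counts. The depth behind a peak is thus unknown, and its length carries no counting interval. The lists held 61297 and 55069 peaks with vehicle and 54682 and 56825 with TGF-beta, covering 44.1, 39.3, 36.7 and 41.7 Mb. The treatment means of 41.7 ± 3.42 and 39.2 ± 3.53 Mb (SD, n = 2 libraries) overlapped (exact two-sided permutation p = 0.667). With 2 libraries against 2, that test cannot give a p below 0.333. Per the file headers, TGF-beta replicate 2 was sequenced on lane 8 and the other 3 libraries on lane 7, so the values without TGF-beta replicate 2 are the within-lane values. Epithelial genes carried the mark in every library, KRT8 over 15.7 to 17.3 kb and KRT7 over 9.74 to 15.4 kb. CFTR, AQP1 and SPP1, also on the cholangiocyte list, had no H3K9ac peak in any library. Markers of other cells were without a peak in all 4 libraries at 4 of 16 hepatocyte, 5 of 16 mesenchymal and endothelial and 3 of 16 leukocyte genes. Of all 19974 protein-coding genes, 4089 were without one, so these counts do not show that other cell types were absent. Among the markers without a peak were the hepatocyte genes ALB and TTR, the fibroblast genes DCN and LUM and the B cell gene MS4A1. Most markers of each list had a peak, and PDGFRB on the mesenchymal list had 8.19 to 12.2 kb. Summed over 16 hepatocyte markers, peak length was 16.3 and 13.8 kb with vehicle and 13.9 and 15.0 kb with TGF-beta. It was 29.0, 22.5, 26.8 and 32.2 kb over 16 mesenchymal and endothelial markers, and 33.0, 29.8, 27.2 and 30.9 kb over 16 leukocyte markers, in the same order.

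3 promoters are printed as examples of a start site where H3K9ac appeared or was lost. In each, the 300 bases from 250 before to 50 after a start listed by RefSeq lay wholly inside a peak in both libraries of one treatment and touched none in either library of the other. This held for 3 promoters with TGF-beta (HNF4A, PMEPA1 and CTTNBP2) and 2 with vehicle (WFDC2 and TNXB), out of 22132 listed starts of 15812 genes. PMEPA1 and WFDC2 were chosen for printing after their values were seen. The sequences are from RefSeq, GRCh38.p14, and run 5′ to 3′ on the strand of the gene: HNF4A chr20:44355449-44355748, plus strand; PMEPA1 chr20:57690637-57690936, minus strand, at the start farthest inside the gene; WFDC2 chr20:45469503-45469802, plus strand. Capitals mark CAGAC, a sequence bound by SMAD3, or GTCTG where it lies on the other strand.
HNF4A: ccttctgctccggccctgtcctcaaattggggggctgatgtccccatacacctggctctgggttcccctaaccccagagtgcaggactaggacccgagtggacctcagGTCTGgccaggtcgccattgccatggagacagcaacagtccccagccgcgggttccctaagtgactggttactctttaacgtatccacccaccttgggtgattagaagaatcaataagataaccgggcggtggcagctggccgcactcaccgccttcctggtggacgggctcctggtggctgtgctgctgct
PMEPA1: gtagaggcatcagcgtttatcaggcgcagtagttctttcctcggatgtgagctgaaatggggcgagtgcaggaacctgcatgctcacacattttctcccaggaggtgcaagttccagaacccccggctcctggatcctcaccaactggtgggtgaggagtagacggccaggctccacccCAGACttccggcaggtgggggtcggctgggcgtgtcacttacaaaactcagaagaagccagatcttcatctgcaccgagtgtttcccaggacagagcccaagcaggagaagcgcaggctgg
WFDC2: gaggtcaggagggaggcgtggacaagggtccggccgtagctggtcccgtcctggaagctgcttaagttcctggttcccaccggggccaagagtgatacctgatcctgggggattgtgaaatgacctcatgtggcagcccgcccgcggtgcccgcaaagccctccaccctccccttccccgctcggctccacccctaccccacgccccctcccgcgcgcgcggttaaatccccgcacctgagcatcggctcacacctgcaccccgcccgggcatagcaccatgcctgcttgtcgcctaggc
HNF4A and PMEPA1 each hold the motif 1 time and WFDC2 does not hold it. Searched on both strands as CAGAC, it occurs in 44.8% of all listed promoters of this length and in 42.7% of those wholly inside a peak in all 4 libraries. The AP-1 motif TGANTCA, searched on both strands, is in none of the 3 and in 6.1% of all listed promoters.

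Across the genome, 612 genes rose and 771 fell in H3K9ac after TGF-beta. The measure was the length inside peaks in the span of a gene with 10 kb on each side, as log2(length + 500 bp). Each library was centred on its median, and limma was used with Benjamini-Hochberg adjustment at 0.05. Of 14605 genes tested, 4.19% rose and 5.28% fell, 9.47% in all. Windows of neighbouring genes overlap, and the calls formed 530 rising and 593 falling loci. Changes were mostly partial: the median size was 0.55 on the log2 scale for rising and 0.49 for falling genes, and 80 and 85 genes changed by more than 1. The counts depended on single libraries. Without TGF-beta replicate 2, 357 genes rose and 619 fell, and without TGF-beta replicate 1, 377 rose and 353 fell. Without centring, 180 rose and 377 fell, a share of 32.3% rising in place of 44.3%.

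The largest rises were at loci with little or no H3K9ac in vehicle. BIRC7, an inhibitor of apoptosis (chromosome 20, 63235905 to 63240495, GRCh38), had no peak with vehicle, where it is listed at 0 in both libraries, against 3.03 and 3.74 kb with TGF-beta. Its neighbour NKAIN4 went from 0 in both to 2.51 and 3.47 kb. DMBX1, a homeobox transcription factor (chromosome 1, 46489836 to 46516216), likewise went from 0 in both to 2.15 and 1.96 kb. Here no level with vehicle exists to form a fold, and the same holds for LOC124904930, IFITM10, XKR7 and CSF1R. LOC124904930, an uncharacterized gene on chromosome 20, reached 3.65 and 4.09 kb. IFITM10, a member of the interferon-induced transmembrane family, reached 1.81 and 2.01 kb, and its call was lost with windows of 50 kb (adjusted p = 0.129). XKR7 reached 1.75 and 1.91 kb. CSF1R, the receptor of the cytokines CSF1 and IL34, reached 1.28 and 1.66 kb. These 7 genes met the minimum mean length through the TGF-beta libraries alone, so their values are given as a description. The same holds for KCNMA1, CGB5, CGB1, CGB2, R3HDML, LDLRAD4, FAP and P4HA3 below, whose vehicle means were under 500 bp.

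At the other leading loci at least 1 vehicle library had a peak. KCNMA1, the BK potassium channel (chromosome 10, 76869602 to 77637808), had 0.336 kb and none with vehicle, and 3.71 and 5.12 kb with TGF-beta (log2 change 3.0 ± 0.196 SE, adjusted p = 0.00024). The vehicle mean was under 500 bp, so these KCNMA1 values too are a description. Near this gene, 8 separate regions were gained. COMP, a cartilage matrix protein that binds collagens (chromosome 19, 18782773 to 18791305), rose from 0.916 and 0.872 kb to 4.68 and 5.68 kb (log2 change 2.11 ± 0.0806 SE, adjusted p = 2.69e-05). The window of COMP reaches into CRTC1, a CREB coactivator, which rose from 6.94 and 4.95 kb to 10.3 and 12.8 kb over its span. Within 2 kb of its start sites the change of CRTC1 was -0.06 (adjusted p = 0.717). ADGRG1, an adhesion receptor also known as GPR56, rose from 2.08 and 1.79 kb to 8.39 and 9.36 kb (log2 change 2.03 ± 0.074 SE). HNF4A, a nuclear receptor of hepatocytes and other epithelia, rose from 0.857 and 0.394 kb to 2.68 and 2.61 kb, together with its neighbour R3HDML. CGB5, which encodes the beta subunit of chorionic gonadotropin, rose from 0.379 and 0.335 kb to 3.40 and 3.97 kb. Its neighbours CGB1 and CGB2 rose with it. These CGB genes are similar copies whose windows overlap, so which copy carries the mark is uncertain. TSPAN11, a tetraspanin, rose from 1.13 and 0.378 kb to 3.75 and 3.99 kb over its span, with a change of 0.05 within 2 kb of its start sites (adjusted p = 0.892).

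The largest falls included a mucin gene, an aquaporin gene and a TNF-induced gene. MUC6, a gel-forming mucin (chromosome 11, 1012823 to 1036718), had 7.18 and 7.01 kb with vehicle and 0.921 and 0.778 kb with TGF-beta (log2 change -2.40 ± 0.104 SE, adjusted p = 3.81e-05). TNFAIP2, a gene induced by TNF (chromosome 14, 103121469 to 103137439), fell from 11.5 and 10.4 kb to 1.93 and 2.44 kb (log2 change -2.01 ± 0.0823 SE, adjusted p = 2.88e-05). Treatments without overlap were required of the leading loci, and in both genes the lowest vehicle library was far above the highest TGF-beta library. AQP5, a water channel of secretory epithelia (chromosome 12, 49961872 to 49965682), fell from 4.42 and 3.15 kb to 0.484 and 0.676 kb, and its neighbours AQP2 and AQP6 fell with it in overlapping windows. CAPN9, a calpain protease of the digestive tract, fell from 3.25 and 3.47 kb to 0.429 and 0.144 kb, and the adjacent AGT, which encodes angiotensinogen, from 3.66 and 4.18 kb to 0.612 and 0.481 kb. RIPOR3 fell from 8.58 and 6.58 kb to 1.16 and 1.67 kb and had 11 lost regions near it, the most of any gene.

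Genes for secreted ligands were also among the 12 loci with the largest falls. INHBB, the activin beta B subunit and itself a member of the TGF-beta family (chromosome 2, 120346136 to 120351803), fell from 4.16 and 3.49 kb to 0.445 and 0.712 kb (log2 change -1.92 ± 0.0987 SE, adjusted p = 9.04e-05). A region of 1891 bp at its start, called in both vehicle libraries, was absent with TGF-beta. EDN2, a vasoconstrictor peptide, fell from 3.86 and 3.78 kb to 0.391 and 0.870 kb. IL34, a ligand of CSF1R, fell from 5.16 and 4.10 kb to 0.560 and 1.51 kb (log2 change -1.72 ± 0.226 SE, adjusted p = 0.0043). With windows of 2 kb the IL34 change was -0.51 (adjusted p = 0.0719). The transcription factor HLF fell from 2.17 and 1.88 kb to 0.254 and 0.285 kb. DOK7, an adaptor of a muscle receptor kinase, fell from 2.57 and 1.51 kb to 0.253 and 0.283 kb. C9orf152 fell from 3.03 and 2.30 kb to 0.431 and 0.496 kb. C13orf46 fell from 2.24 and 2.06 kb to 0.176 and 0.473 kb and lost its call with windows of 50 kb (adjusted p = 0.0941). CAPN9, AQP6, HLF, DOK7, C9orf152 and C13orf46 had means under 500 bp with TGF-beta. They met the minimum mean length through the vehicle libraries alone, as did SLPI and AGR2 below, so their values are a description.

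**Figure D1:**
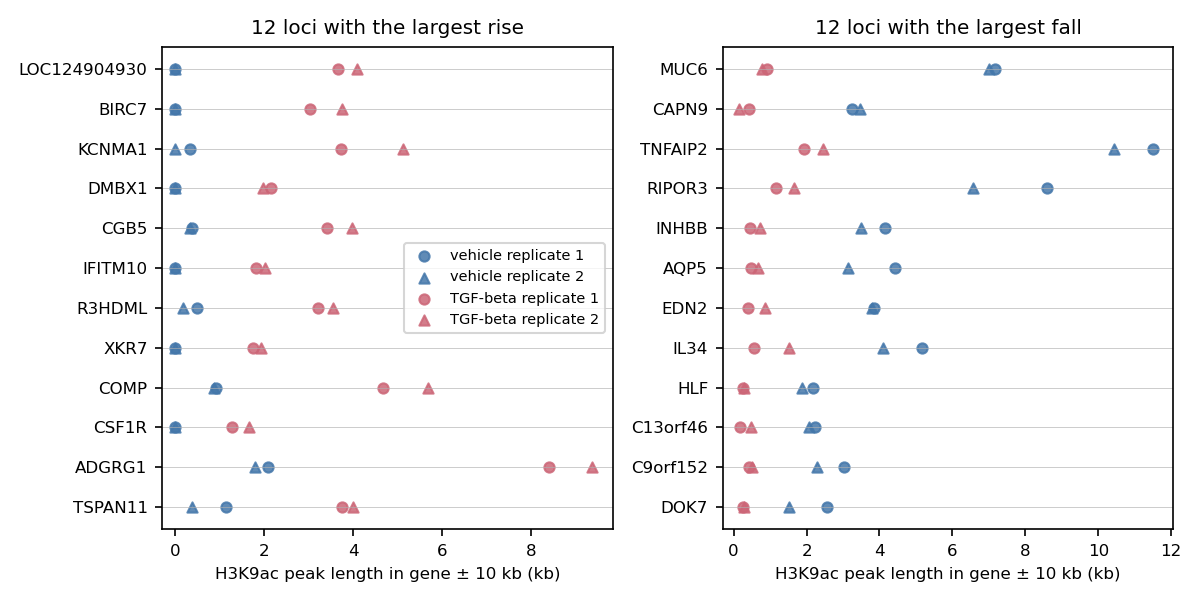
H3K9ac peak length (kb) in the gene span with 10 kb on each side at the 12 loci with the largest rise (left) and fall (right). Each point is 1 library, blue for vehicle and red for TGF-beta, circles for replicate 1 and triangles for replicate 2. Loci were picked among called genes whose treatments do not overlap. This held for all 612 rising and 771 falling genes, so the condition removed none and adds no support to the calls. The share of all tested genes without overlap was not counted. Several on the left sit at 0 with vehicle.

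The gene lists below were chosen with earlier results of these data known, so their counts describe the lists and are no independent evidence of a direction. Over all tested genes 4.19% rose and 5.28% fell, the background for the counts of every list. Whether a list differs from these shares was not tested, and several small counts below lie near them. TGF-beta and SMAD target genes moved one way: 13 of the 28 measured members rose, none fell and 15 did not pass, with a median log2 change of 0.26 against 0.00 over all genes. At an unadjusted p under 0.05, 17 rose and none fell. Over all 14605 tested genes 1488 rose and 1903 fell at that level, the background for the unadjusted counts of every list. PMEPA1, a membrane protein that restrains SMAD signalling (chromosome 20, 57648396 to 57711472), went from 17.2 and 14.7 kb to 28.6 and 29.5 kb (log2 change 0.94 ± 0.0806 SE, adjusted p = 0.000784). TGFBI, a secreted adhesion protein of the matrix, went from 5.96 and 4.43 kb to 9.46 and 10.1 kb (log2 change 0.95 ± 0.104 SE, adjusted p = 0.00201), and 11 gained regions lay near it. LDLRAD4, a negative regulator of TGF-beta signalling, rose from 0.408 and 0.406 kb to 0.954 and 1.49 kb. ANGPTL4, a secreted inhibitor of lipoprotein lipase, rose from 3.31 and 2.28 kb to 4.86 and 6.15 kb.

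Other members of this list changed less. CCN2 had 4.29 and 3.94 kb with vehicle and 4.29 and 4.90 kb with TGF-beta (adjusted p = 0.102). The inhibitory SMAD7 rose from 13.0 and 10.9 kb to 14.8 and 16.4 kb, a call lost without TGF-beta replicate 1 (adjusted p = 0.0593). Also on this list, the cell cycle inhibitor CDKN2B rose from 6.20 and 6.07 kb to 7.26 and 8.20 kb, a call lost without TGF-beta replicate 1 or 2 (adjusted p = 0.0791 and 0.0841). The count on the list was 8 without TGF-beta replicate 1 and 5 without centring, and none fell in either. Within 2 kb of start sites it was 7. Among BMP and ID genes, 2 of 13 rose and 2 fell, and neither faller passed without TGF-beta replicate 1 or 2. NOG, which encodes the BMP antagonist noggin, rose from 1.83 and 1.59 kb to 2.74 and 3.13 kb, and the ligand BMP4 went from 9.62 and 8.73 kb to 6.52 and 7.15 kb. The BMP4 call was lost without any one of the 4 libraries (adjusted p between 0.0715 and 0.174).

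Matrix genes gained H3K9ac more often than they lost it. Of 29 measured extracellular matrix and collagen genes, 14 rose and 2 fell, and the median log2 change was 0.37. COL1A1, a chain of type I collagen (chromosome 17, 50184101 to 50201631), rose from 6.59 and 6.06 kb to 10.4 and 12.3 kb (log2 change 0.88 ± 0.077 SE, adjusted p = 0.000845). COL1A2, the partner chain, rose from 1.08 and 0.911 kb to 1.99 and 2.03 kb, and was picked after its values were seen. LOXL1, which crosslinks elastin, rose from 5.53 and 5.11 kb to 8.93 and 10.8 kb. ELN, elastin itself, rose from 0.829 and 0.313 kb to 1.31 and 1.31 kb, a call lost without TGF-beta replicate 1 (adjusted p = 0.0874). FN1, fibronectin, went from 3.23 and 2.71 kb to 3.70 and 3.96 kb. The FN1 call was lost without TGF-beta replicate 1 or 2 or vehicle replicate 2 (adjusted p = 0.105, 0.0561 and 0.0507). Both falling members belong to basement membranes: LAMA3, a laminin chain, went from 3.08 and 2.81 kb to 1.67 and 1.72 kb. HSPG2, perlecan, went from 7.76 and 5.48 kb to 3.45 and 4.43 kb, a call lost without TGF-beta replicate 1 (adjusted p = 0.153). Not every basement membrane gene fell. COL4A2, a type IV collagen chain of basement membranes, was called as rising and was picked after its values were seen. Its call was lost without centring (log2 change 0.49, adjusted p = 0.0515) and with windows of 50 kb (0.2, adjusted p = 0.105). COL3A1 and POSTN had no H3K9ac peak in any library. Of 14 metalloproteinases and inhibitors, 5 rose and 1 fell, and 3 rose without either TGF-beta replicate. ADAM12 rose from 2.64 and 2.55 kb to 4.44 and 5.60 kb, and the gelatinase MMP2 from 0.735 and 0.601 kb to 1.23 and 1.80 kb. The matrix list held 9 rising genes without TGF-beta replicate 1, 5 without centring and 8 within 2 kb of start sites, where the call of LOXL1 was lost (adjusted p = 0.138). For COL1A1, which has no listed start, the call was lost within 2 kb of either gene end (adjusted p = 0.187).

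Of 27 integrin and focal adhesion genes, 9 rose, none fell and the median log2 change was 0.20, and at an unadjusted p under 0.05, 14 rose and 5 fell. Without vehicle replicate 2, 7 rose and 1 fell. Without centring 2 rose, and within 2 kb of start sites 2 rose and 1 fell. TNS1, an adaptor between integrins and actin (chromosome 2, 217799791 to 218033982), rose from 1.89 and 1.14 kb to 5.09 and 6.38 kb (log2 change 1.74 ± 0.143 SE, adjusted p = 0.00065). ITGB6, a subunit of an integrin that activates latent TGF-beta, rose from 4.04 and 3.27 kb to 5.31 and 6.36 kb. PARVA, which links integrins to actin, rose from 2.68 and 2.38 kb to 3.55 and 4.74 kb, but by 0.01 with windows of 2 kb (adjusted p = 0.955). Of 24 smooth muscle and actin genes, 4 rose and 1 fell. PALLD rose from 14.4 and 10.7 kb to 19.2 and 21.5 kb, and TAGLN, an early smooth muscle gene, from 2.52 and 2.61 kb to 3.90 and 4.62 kb. 2 of the 10 measured mesenchymal and endothelial markers rose and none fell by limma (3 and 1 at an unadjusted p under 0.05), and none rose without either TGF-beta replicate. FAP, a fibroblast protease, went from 0 in both to 0.825 and 1.30 kb. It met the minimum mean length through the TGF-beta libraries alone. Without either TGF-beta replicate it fell under that minimum and could not be called. PDGFRB went from 9.91 and 8.19 kb to 11.1 and 12.2 kb, a call lost without TGF-beta replicate 1 or 2 (adjusted p = 0.0825 and 0.0648). The part of the other cell types of this list in the rise of matrix and adhesion genes was not tested. Of the other marker lists, HNF4A rose and TAT fell among 6 measured hepatocyte markers, and CSF1R rose among 9 measured leukocyte markers. CSF1R and PDGFRB are neighbours whose windows overlap, so their rises form a single locus and are not independent. The mesenchymal and endothelial markers DCN, LUM, LRAT, CLEC14A and EMCN were at 0 in all 4 libraries.

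**Figure D2:**
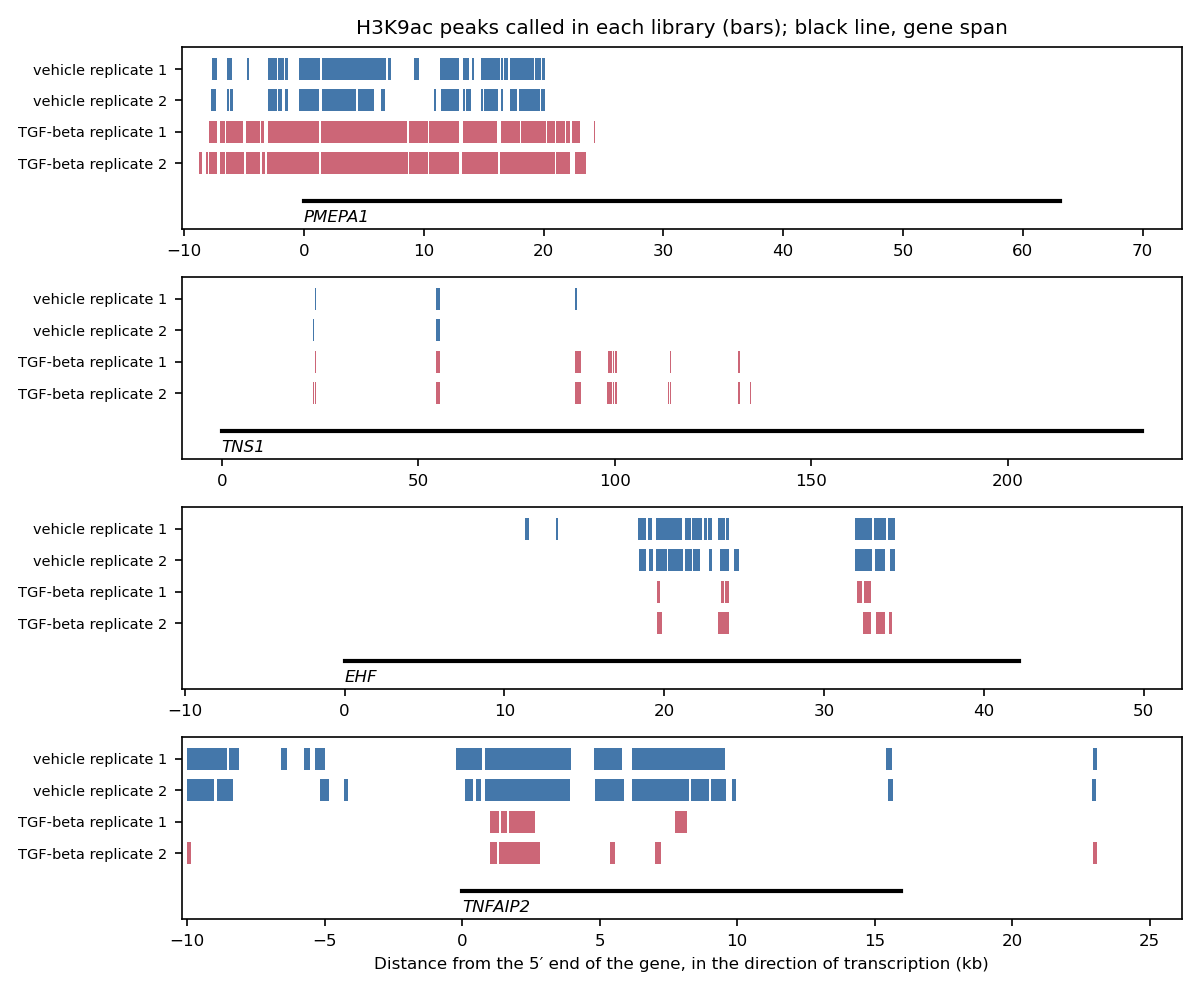
H3K9ac peaks of each library (bars, blue for vehicle and red for TGF-beta) against distance from the 5′ end of the gene (kb, in the direction of transcription) at PMEPA1, TNS1, EHF and TNFAIP2; the black line is the gene span. In PMEPA1 separate vehicle peaks give way to nearly continuous TGF-beta peaks at the 5′ end, in TNS1 the added peaks lie deep in the gene, and in EHF and TNFAIP2 few vehicle peaks remain with TGF-beta.

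Of 18 measured factors of the epithelial to mesenchymal transition none rose and none fell by limma, and 4 rose and 3 fell at an unadjusted p under 0.05. 1 fell without TGF-beta replicate 2 or vehicle replicate 2, and 2 rose without vehicle replicate 1. With windows of 50 kb, 5 rose and 1 fell. SNAI1 had 2.13 and 1.66 kb with vehicle and 2.13 and 2.53 kb with TGF-beta (adjusted p = 0.0567). CDH2, the neural cadherin, had 7.63, 5.32, 7.75 and 9.60 kb in the same order (adjusted p = 0.0552). ZEB1 stayed between 2.90 and 3.05 kb, and VIM between 3.61 and 4.02 kb. These 4 were picked after their values were seen, and a p that misses the threshold does not show that they were equal.

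Of 15 measured epithelial transcription factors 3 fell and none rose, and at an unadjusted p under 0.05, 7 fell and none rose. EHF, an ETS factor of epithelial cells (chromosome 11, 34621093 to 34663288), fell from 7.0 and 6.13 kb to 1.28 and 2.22 kb (log2 change -1.59 ± 0.146 SE, adjusted p = 0.00102). ELF3, a related ETS factor (chromosome 1, 202010587 to 202017183), fell from 5.98 and 4.34 kb to 1.30 and 1.89 kb (log2 change -1.35 ± 0.132 SE, adjusted p = 0.00133). GRHL3, a grainyhead factor of barrier epithelia, fell from 2.44 and 1.74 kb to 0.763 and 0.931 kb. The 3 calls held without each library in turn. Junction genes were split, with 2 of 24 rising and 3 falling, against 4.19% and 5.28% of all tested genes. Fewer fell without TGF-beta replicate 1. CDH1, epithelial cadherin (chromosome 16, 68737292 to 68835537), fell from 12.9 and 9.10 kb to 4.36 and 5.33 kb (log2 change -1.0 ± 0.126 SE, adjusted p = 0.00356), with 9 lost regions near it. No start of CDH1 was listed, and within 2 kb of either end of the gene the change was -0.09 (adjusted p = 0.516). PARD6B, a polarity protein, went from 9.52 and 8.53 kb to 5.48 and 6.51 kb, and TJP3, a tight junction protein, from 4.80 and 3.88 kb to 2.20 and 2.97 kb. Both calls were lost without TGF-beta replicate 1 (adjusted p = 0.0768 and 0.0841). The junction proteins JUP and DSG2 went the other way, JUP from 4.32 and 4.20 kb to 6.32 and 7.49 kb. Within 2 kb of start sites neither passed (adjusted p = 0.366 and 0.664).

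Of 20 mucin and defence genes 10 were measured and 6 had no peak in any library. Of the measured genes 6 fell and none rose, with a median log2 change of -0.77. The count and the median include SLPI and AGR2, which met the minimum mean length through the vehicle libraries alone. At an unadjusted p under 0.05, 9 fell and none rose. Without centring, or with a pseudocount of 100 bp, 4 fell. Besides MUC6, the fallers were MUC5AC, LCN2, SLPI, WFDC2 and AGR2. MUC5AC, a secreted mucin, went from 3.03 and 2.86 kb to 1.19 and 1.41 kb, and LCN2, an iron-sequestering lipocalin, from 2.70 and 2.51 kb to 1.06 and 1.28 kb. These 2 were picked after their values were seen. SLPI, a protease inhibitor of mucosal fluids, went from 1.75 and 1.30 kb to 0.173 and 0.672 kb. AGR2, a disulfide isomerase needed for mucin folding, went from 1.17 and 0.958 kb to none and 0.452 kb. WFDC2, whose promoter is printed above, went from 1.52 and 1.27 kb to 0.557 and 0.879 kb, a call lost without TGF-beta replicate 1 (adjusted p = 0.0722). Among 23 measured cholangiocyte identity genes 2 rose and 1 fell. KRT19, a biliary keratin, fell from 4.18 and 4.12 kb to 2.10 and 2.74 kb, while SCTR, the secretin receptor, rose from 1.55 and 1.34 kb to 2.39 and 3.91 kb. KRT7 and SOX9 did not pass (adjusted p = 0.0859 and 0.118).

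Signalling molecules moved in both directions, as did all tested genes, of which 4.19% rose and 5.28% fell. Of 24 chemokines and inflammatory genes, 3 rose and 5 fell, or 3 and 2 without TGF-beta replicate 1 and 2 and 3 without TGF-beta replicate 2. The chemokine CCL20 rose from 2.22 and 2.08 kb to 3.46 and 3.74 kb, and the growth factor CSF3 fell from 9.76 and 8.92 kb to 3.97 and 5.08 kb. Of 21 secreted growth factors linked to fibrosis, 3 rose and 3 fell. PDGFC, a platelet-derived growth factor, rose from 7.24 and 4.95 kb to 8.96 and 11.2 kb, but by 0.02 within 2 kb of either gene end, as no start was listed (adjusted p = 0.916). FGF1 rose from 0.783 and 0.666 kb to 1.31 and 1.91 kb. GDF15, a stress-induced cytokine, fell from 5.67 and 3.51 kb to 1.21 and 2.15 kb, and EREG, an EGF receptor ligand, from 4.61 and 3.94 kb to 2.56 and 2.58 kb. AREG, another such ligand, went from 4.47 and 3.37 kb to 1.54 and 2.55 kb, a call lost without TGF-beta replicate 1 (adjusted p = 0.0879). Among 26 Notch and WNT genes 1 rose and 4 fell, with 2 fallers left without either TGF-beta replicate. The receptor NOTCH1 fell from 6.35 and 5.73 kb to 3.65 and 3.52 kb, and its ligand DLL4 went from 5.53 and 4.95 kb to 3.45 and 3.42 kb. The DLL4 call was lost without TGF-beta replicate 2 (adjusted p = 0.0734).

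In 24 lipid and carbohydrate metabolism genes, 5 fell and none rose, with a median log2 change of -0.21, and at an unadjusted p under 0.05, 12 fell and 2 rose. APOB, the structural protein of lipoproteins, fell from 2.46 and 2.49 kb to 0.686 and 1.06 kb, and LPIN1, a phosphatidate phosphatase, from 7.81 and 6.69 kb to 3.72 and 3.91 kb. GREB1, an oestrogen-responsive gene, fell from 3.59 and 2.71 kb to 0.943 and 1.38 kb. Of 24 interferon response genes 3 fell and none rose by limma, and 6 fell and 3 rose at an unadjusted p under 0.05. Without TGF-beta replicate 1, 1 fell and 1 rose, and without TGF-beta replicate 2 none passed. ISG15 was at 8.08 and 7.23 kb with vehicle and at 4.95 and 5.41 kb with TGF-beta, a call lost without TGF-beta replicate 1 or 2 (adjusted p = 0.0636 and 0.0514). Of 26 cell cycle genes 2 rose and 3 fell, while 1 rose without TGF-beta replicate 1 or vehicle replicate 2 and none without TGF-beta replicate 2. The inhibitor CDKN1C fell from 5.15 and 4.56 kb to 2.78 and 2.58 kb, and E2F2 from 3.73 and 3.08 kb to 1.79 and 1.91 kb. Among 27 genes of the acetylation machinery 1 rose and 3 fell, and 1 fell without either TGF-beta replicate. The acetyltransferase KAT2B went from 3.62 and 3.22 kb to 2.19 and 1.94 kb, a call lost without TGF-beta replicate 2 (adjusted p = 0.0723). Its relative KAT2A had 5.08 and 4.14 kb with vehicle and 4.12 and 5.21 kb with TGF-beta (adjusted p = 0.577), and the groups overlapped. The bromodomain reader BRD3 went from 10.4 and 9.45 kb to 6.19 and 7.05 kb, a call lost without TGF-beta replicate 1 (adjusted p = 0.0613). Of 21 YAP targets DLC1 rose and CRIM1 fell, near the shares of 4.19% and 5.28% over all tested genes. The CRIM1 call was lost without TGF-beta replicate 1 or either vehicle replicate (adjusted p = 0.214, 0.0649 and 0.061). None of 24 AP-1 and immediate early genes passed by limma, and 3 rose and 4 fell at an unadjusted p under 0.05. None of 24 housekeeping genes passed, and 2 fell at an unadjusted p under 0.05. GAPDH had 6.88 and 6.89 kb with vehicle and 6.32 and 7.37 kb with TGF-beta.

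**Figure D3:**
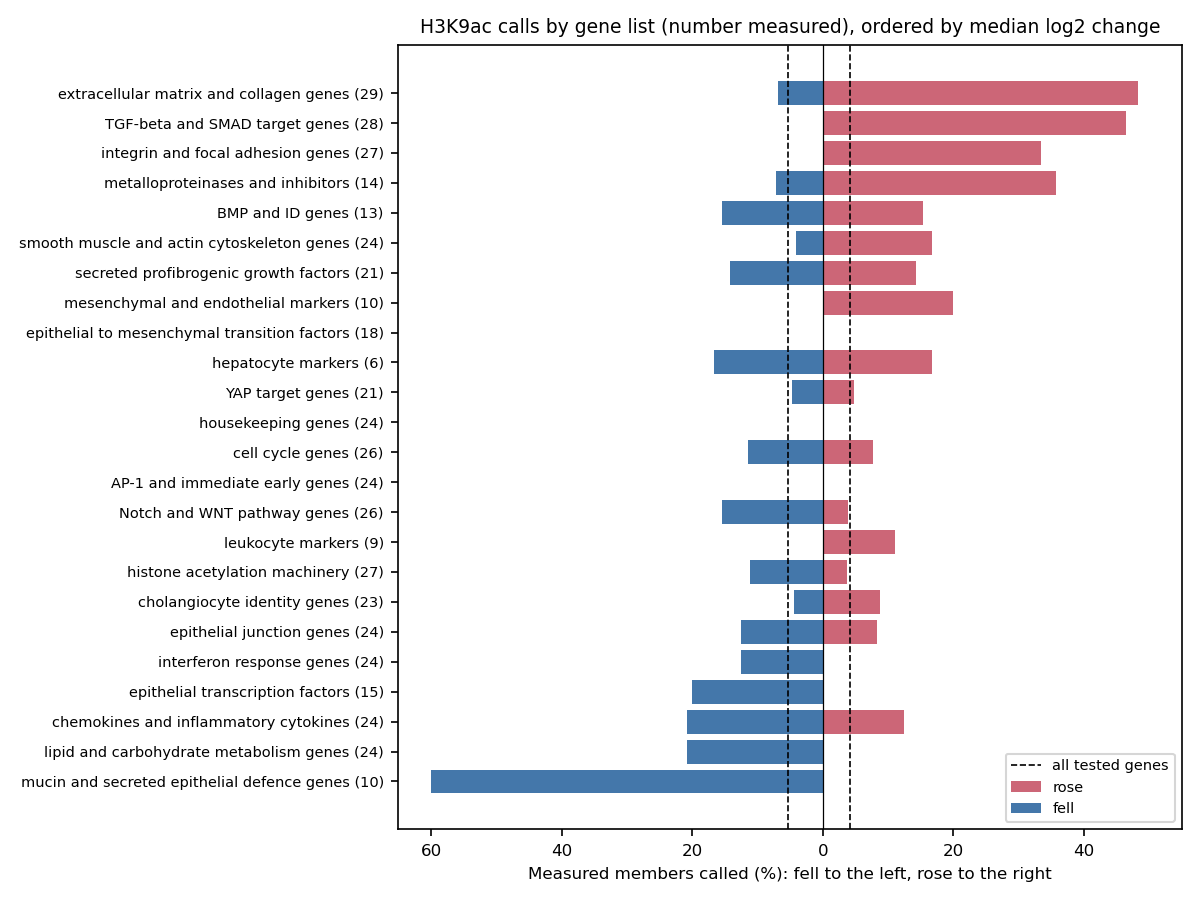
Share (%) of the measured members of each gene list called as rising (red, to the right) or falling (blue, to the left), with the number measured in parentheses and lists ordered by median log2 change. Some called members met the minimum mean length through only the vehicle or only the TGF-beta libraries. Dashed lines mark the shares over all tested genes, 4.19% rising and 5.28% falling; matrix and TGF-beta target lists stand at the rising end, and the mucin and defence list at the falling end.

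Gains and losses of whole peaks were counted on merged regions, without a test. Peaks of the 4 libraries that overlapped by at least 1 bp were merged, which gave 3505 gained regions (both TGF-beta libraries, neither vehicle library), 4188 lost regions (the reverse) and 33894 constant regions (all 4). The excess of losses was not stable: with peak numbers made equal 3778 regions were gained and 3676 lost, and without TGF-beta replicate 1, 8389 and 4852. Regions that 1 replicate had and the other of the same treatment lacked numbered 3674 to 14596. Across treatments, single pairs of libraries gave 7075 to 13264 regions found with TGF-beta alone and 9845 to 18916 with vehicle alone. Gained and lost regions were short, with median lengths of 313 and 315 bp against 1002 bp for regions in all 4 libraries. They lay mostly away from start sites. Within 1 kb of a listed start were 4.2% of gained, 8.8% of lost and 45.5% of constant regions, and 44.2%, 37.0% and 23.1% lay outside genes. A constant region lay within 10 kb of 58.1% of the gained and 67.8% of the lost regions.

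The longest gained region, 1714 bp on chromosome 11 from 1748361 to 1750074, lay at an end of IFITM10. The next 5 lay in TNS3, a focal adhesion protein (1484 bp), in RARA, a retinoic acid receptor (1332 bp), 2 near TSPAN2 (1407 and 1328 bp) and 1 on chromosome 6 with no gene within 50 kb (1329 bp). The longest lost region, 2933 bp on chromosome 11 from 61697399 to 61700331, lay in DAGLA, a lipase that makes an endocannabinoid; the next lay in MYO18A (2100 bp), at the start of INHBB, in SH3GL1 (1852 bp), at an end of PARP10 (1823 bp) and in ERBB2, a growth factor receptor (1784 bp). By number, gained regions were most frequent near PLB1, with 13, and near NEDD9 and TGFBI, with 11 each. NEDD9 is a focal adhesion scaffold and its peak length rose from 9.66 and 9.02 kb to 13.0 and 15.2 kb. After RIPOR3, lost regions were most frequent near CDH1 and TSC22D3, with 9 each. Listed start sites were classed apart from these regions, by whether the start base itself lay in a peak. In both TGF-beta libraries and neither vehicle library this held for 180 starts in 178 genes. The reverse held for 348 starts in 341 genes, while 7524 starts were in peaks of all 4 libraries. A peak over such a start need not belong to a gained or lost region.

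Much of the change at called genes came from regions present in all 4 libraries that grew or shrank. Uncentred, peak length over the 612 rising genes grew by 1059 kb net, with windows counted more than once where they overlap. Of this, 43.6% lay in regions called in all 4 libraries and 37.6% in gained regions. Over the 771 falling genes the net change was -1458 kb, 50.5% of it in regions called in all 4 and 27.7% in lost regions. A gained region lay in the window of 458 rising genes (74.8%), against 9.1% of the 13222 genes not called. A lost region lay in that of 572 falling genes (74.2%), against 17.3%. Calls and regions come from the same peaks, so these shares are a description.

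**Figure D4:**
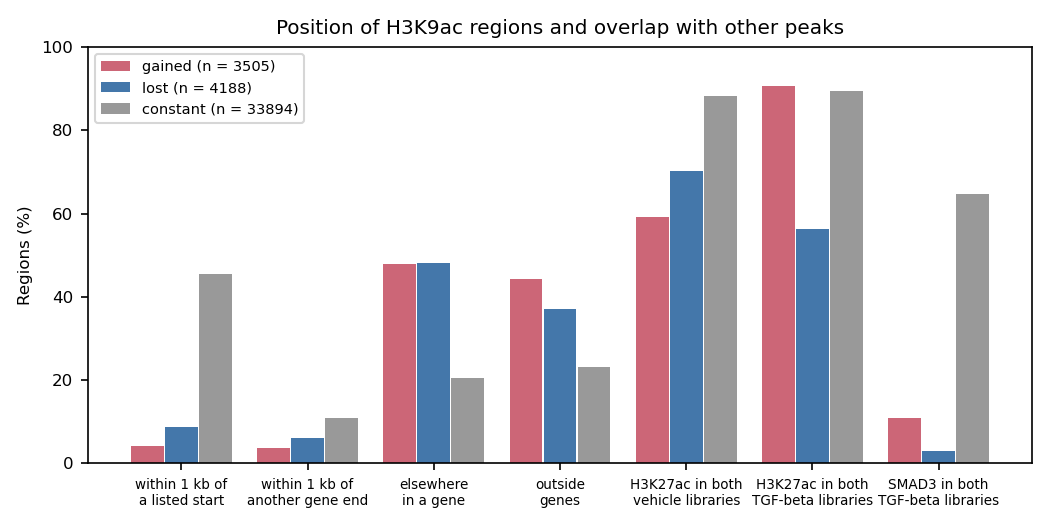
Share (%) of gained (red), lost (blue) and constant (grey) H3K9ac regions by position relative to genes, and by overlap of at least 1 bp with peaks of H3K27ac or SMAD3 called in both libraries of a treatment. Gained and lost regions are rare at listed starts, and with TGF-beta 90.7% of gained, 56.3% of lost and 89.5% of constant regions carry H3K27ac.

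H3K27ac, a second acetylation mark of active enhancers and promoters, was measured in the same design in other libraries. Of the 3505 gained H3K9ac regions, 59.2% overlapped an H3K27ac peak in both vehicle libraries and 90.7% in both TGF-beta libraries. Of the 4188 lost regions the shares were 70.1% and 56.3%, and of the constant regions 88.2% and 89.5%. By gene, H3K27ac rose at 2074 of 13994 tested genes (14.8%) and fell at 1596 (11.4%). Among genes tested in both marks, 466 of the 566 that rose in H3K9ac also rose in H3K27ac (82.3%), which is 24.4% of the 1910 genes that rose in H3K27ac. Of the 701 that fell in H3K9ac, 438 also fell in H3K27ac (62.5%), 29.1% of the 1507 that fell in H3K27ac. Windows with SMAD3 peaks longer in both TGF-beta than in both vehicle libraries were found at 85.5% of rising, 38.0% of falling and 64.5% of all tested genes. SMAD3 was shorter in both at 0.2%, 11.3% and 2.3%. Of single regions, 11% of gained, 3.0% of lost and 64.8% of constant ones overlapped SMAD3 in both TGF-beta libraries. Constant regions were longer (median 1002 bp against 313 and 315 bp) and more often near starts, and the overlap was adjusted for neither. The SMAD3 libraries carry replicate numbers 4 and 5, other than those of H3K9ac.

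The change itself differed between the marks (limma, treatment by mark term) at 1100 of 14470 tested genes (7.6%). At 283 genes (1.96%) the H3K9ac change was the higher, and at 817 (5.65%) the lower. Without centring the counts were 75 and 1090, a share of 6.4% higher in place of 25.7%. They fell to as few as 102 and 388 with 1 library left out, both without H3K9ac TGF-beta replicate 1. TNS1 rose in both marks, and H3K27ac went from 0.707 and 0.424 kb to 11.2 and 11.98 kb, a larger change on the log2 scale (difference -1.69, adjusted p = 0.00581). COMP went from 0 in both to 4.64 and 4.61 kb for H3K27ac. EDN2 fell further in H3K9ac than in H3K27ac, where it went from 5.90 and 7.11 kb to 5.16 and 4.45 kb (difference -1.39, adjusted p = 0.00648). APOB did the opposite, falling in H3K27ac from 5.26 and 5.41 kb to 0.689 and 0.698 kb (difference 1.34, adjusted p = 0.00125). No difference was called at COL1A1, TGFBI or CDH1 (adjusted p = 0.201, 0.994 and 0.199), where the differences were -0.26, 0.00 and -0.41.

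**Figure D5:**
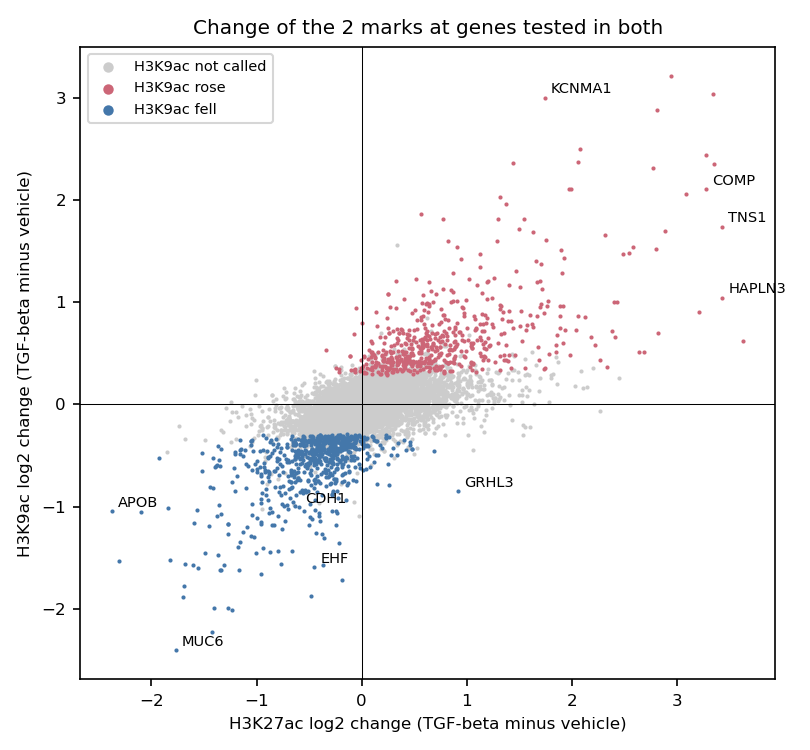
Log2 change of H3K9ac (vertical) against that of H3K27ac (horizontal), TGF-beta minus vehicle, at genes tested in both marks; each point is 1 gene, red where H3K9ac rose, blue where it fell and grey where it was not called. Called genes lie mostly in the lower left and upper right, and GRHL3 is among the few at the lower right.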

How the data were processed

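ChIP-seq peaks of H3K9ac (4 libraries) were compared between TGF-beta and vehicle, with H3K27ac and SMAD3 libraries beside them. The submitters' processing notes name BWA, Picard, MACS2, bedtools and hg38, without versions, cutoffs or controls. Each library's deposited peak list has a score that was read as -log10 of a p or q value; which of them is not stated. Scores were used only to rank or filter peaks. A locus called longer can reflect depth, which the files do not hold.

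Genes were 19974 protein-coding RefSeq genes (GRCh38.p14); no strand or start is listed for genes outside the 15812 with a promoter entry, and exons and introns were not used here. Peak length in the gene span with 10 kb on each side was analysed as log2(length + 500 bp), for genes whose mean length reached 500 bp, each library centred on its median over genes covered in all 4. Log2 changes are TGF-beta minus vehicle and understate changes of short lengths. Tests used limma 3.58.1 in R 4.3.3, checked on simulated data, with Benjamini-Hochberg adjustment at 0.05; other steps used Python 3.11.15. Region classes were counted in Python with numpy 2.4.6 and pandas 2.3.3. The same numbers on replicates were not taken as pairs. Named were the 12 loci with the largest change in each direction, among called genes whose treatments did not overlap. Also named were up to 3 members per list and direction, and 6 loci per direction for the difference between marks. Genes fixed by name and those said to be picked later were added. The 24 lists held 568 entries, all matched. Members and lists were chosen with earlier results of these data known. Where no start was listed, the window near start sites took both gene ends. Alternatives changed the window, pseudocount, filter, centring, peak number, score, block and libraries, 1 at a time. Inputs were not analysed here, and 1 gene is not reported here.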

Additional observations from a re-analysis of the deposited data

Results flagged for a closer look

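The change differed between H3K9ac and H3K27ac, by the limma treatment by mark term, at the loci named here. Values are the change in H3K9ac minus that in H3K27ac on the log2 scale. 6 loci were named for the largest positive differences. ST6GALNAC1, a sialyltransferase, had 2.66 and FGA, a fibrinogen chain, 1.64. Neither had an H3K9ac peak in any library, so these differences hold no H3K9ac change and come from H3K27ac and the centring; H3K27ac at ST6GALNAC1 went from 2.17 and 2.43 kb to none. GUCY1A2 had 1.61, with H3K9ac at 0.144 to 0.551 kb in all 4 libraries. SGCE, a sarcoglycan, had 1.52 (adjusted p = 0.000725): H3K27ac fell from 5.66 and 7.10 kb to 1.65 and 1.71 kb, and H3K9ac had 2.70 and 2.59 kb with vehicle and 2.09 and 2.0 kb with TGF-beta. TMOD1 had 1.41 and TMC5 1.38, and both calls were lost without H3K9ac TGF-beta replicate 1 (adjusted p = 0.0718 and 0.0539) or replicate 2 (0.0727 and 0.0838). They were also lost without H3K27ac TGF-beta replicate 2 (adjusted p = 0.0665 and 0.0837). TMOD1 was lost without H3K9ac vehicle replicate 2 (0.0752) or H3K27ac TGF-beta replicate 1 (0.0668), and TMC5 without H3K9ac vehicle replicate 1 (0.0812) or H3K27ac vehicle replicate 1 (0.0513).

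6 loci were named for the largest negative differences. SHISAL2A had -3.01, HAPLN3 -2.39, CREG2 -2.33, P4HA3 -2.30, GUCA1B -2.21 and LHB -2.19, with adjusted p of 0.000136 to 0.000447. At each, H3K27ac rose from 0 to 0.630 kb with vehicle to 2.19 to 6.73 kb with TGF-beta. H3K9ac rose at SHISAL2A (0.589 and 0.461 to 0.762 and 1.24 kb), HAPLN3, which links hyaluronan to proteoglycans (1.43 and 1.43 to 2.99 and 3.52 kb), and P4HA3, a collagen prolyl hydroxylase subunit (0.482 and 0.378 to 0.978 and 1.31 kb). No change was called at CREG2 or LHB (adjusted p = 0.671 and 0.183), and H3K9ac at GUCA1B was under the minimum length. LHB is a near copy of the CGB genes.

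10 genes had opposite calls in the marks. H3K9ac fell and H3K27ac rose at GRHL3 (-1.76), EFR3B (-1.15), AQP11 (-0.83), DMWD (-0.72), GPR4 (-0.75), PPCDC (-0.87), SCAMP2 (-0.86) and the overlapping VWA1 and LOC107985729 (-0.92 each), and the reverse held at JAKMIP2 (0.87). At GRHL3, H3K27ac rose from 2.59 and 3.52 kb to 6.35 and 6.77 kb while H3K9ac fell from 2.44 and 1.74 kb to 0.763 and 0.931 kb (difference ± 0.176 SE, adjusted p = 0.00118). With 1 library left out, the H3K9ac call itself was lost at 8 of these genes, all but GRHL3 and EFR3B. Without H3K9ac TGF-beta replicate 1 the adjusted p was 0.0939 at AQP11, 0.0667 at DMWD, 0.173 at GPR4, 0.136 at PPCDC, 0.112 at SCAMP2 and 0.231 at VWA1 and LOC107985729. Without TGF-beta replicate 2 it was 0.104 at AQP11, 0.129 at DMWD, 0.0797 at GPR4, 0.08 at JAKMIP2, 0.0698 at PPCDC and 0.0511 at SCAMP2. Without vehicle replicate 1 it was 0.0596 at DMWD and 0.0686 at PPCDC, and without vehicle replicate 2 it was 0.0598 at AQP11, 0.0768 at GPR4 and 0.107 at VWA1 and LOC107985729. Of the 10 differences, those at PPCDC, VWA1 and LOC107985729 were not called without H3K9ac TGF-beta replicate 1 (adjusted p = 0.0556, 0.0512 and 0.0512), and that at JAKMIP2 not without centring (0.0778). VWA1 and LOC107985729 were also not called without H3K9ac vehicle replicate 2 (adjusted p = 0.0506) or H3K27ac TGF-beta replicate 1 (0.0504).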

How the results depend on the processing

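Against 612 rising and 771 falling genes, windows of 50 kb gave 1128 rising, windows within 2 kb of start sites 175 and 269, no centring 180 and 377, and a pseudocount of 100 bp 513 falling. With 1 library left out, 357 to 732 genes rose and 353 to 837 fell; a lone library was assumed to vary like the other group. Of the 1383 calls, 556 were among the 557 without centring and 332 among the 444 near start sites, where 112 had the other sign. The reversed named genes there were CRTC1 (-0.06) and BMP4 (0.04). At CSF1R the difference between marks was 0.33 with a pseudocount of 100 bp in place of -1.03. Of 133 named calls, 53 were lost without centring, 49 near start sites, 36 without TGF-beta replicate 1, 26 without TGF-beta replicate 2 and 13 or fewer without either vehicle replicate. Calls of genes no longer tested in a setting were not counted as lost, so the losses can be undercounted. The cause of the losses was not tested.

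For the difference between marks, 75 genes had the higher and 1090 the lower H3K9ac change without centring, and with 1 library left out 102 to 239 had the higher and 388 to 741 the lower change. Merging peaks within 500 bp gave 1612 gained and 1891 lost regions; leaving out a library gave 4178 to 8389 and 4852 to 13806, since fewer libraries must then share a class. The covered length difference of -2.56 Mb ranged from -5.06 to -0.07 Mb. Depth is unknown, which limits every length.

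The labels do not say that replicate numbers pair the libraries, and deviations of same-numbered libraries correlated at -0.136 over genes. With the replicate number as a block 680 genes rose and 845 fell, and 179 had the higher H3K9ac change; 2 named calls were lost. With crossed numbers, an alternative added after seeing the data, 646 rose and 787 fell.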
